A study of Mus musculus with 5 samples.

Results

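The histone genes examined here fall into replication-dependent genes, which lie in clusters and are read mainly in S phase, and variant histone genes, which are read throughout the cell cycle. They were picked out by a rule on gene symbols, and 3 regulators of histone mRNA (Slbp, Npat and Casp8ap2) were added. Of 19937 mouse genes with a probe set of their own on the array, 36 were members. They comprised 27 replication-dependent histone genes, 6 variant histone genes and the 3 regulators. Both histone classes hold testis or germ cell genes, such as H1f6 and H2bc1 in the first and H1f7 and H1f8 among the variants. The general descriptions above do not cover those genes.

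Replication-dependent histone mRNAs are unusual among mammalian mRNAs in ending in a stem-loop rather than a poly(A) tail. The stem-loop is bound by the protein SLBP, and the 3′ end is cut with the help of the U7 small nuclear ribonucleoprotein. The ring of that particle contains Sm proteins with LSM10 and LSM11 and is assembled by the complex built around the survival of motor neuron protein (SMN). NPAT drives transcription of the clustered genes in the histone locus body, and CASP8AP2 (FLASH) takes part in cutting the 3′ end. Variant histones such as H2A.Z and H3.3 come from polyadenylated mRNAs and are placed in chromatin outside replication as well.

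The RNA came from NSC-34, labelled a mouse motor neuron-like cell line, and was precipitated with anti-FLAG beads and hybridised to 5 single-colour arrays. The 3 FLAG-SMN IP arrays came from cells with a 3XFLAG-flSMN construct, and the 2 control IP arrays from cells that carried no FLAG construct, so that the control shows RNA held by the anti-FLAG M2 beads without a tagged protein. Cells of both groups were differentiated in 1% serum (3 days in one protocol, 48 hours in another), given 3 µg/ml doxycycline for 3 days and irradiated at 400 mJ/cm2. The sources used here do not give the promoter of the construct, its species or whether the cells are 1 clone. They also do not state separate cultures for the replicates, so the p-values rest on a spread between samples that may be technical.

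The values are log2 signals after RMA, which gives the arrays a common distribution. Array medians over 28187 tested probe sets lay between 5.25 and 5.39, and medians of the presumed control probe sets between 4.30 and 4.54. RNA of the lysates was not analysed here, so a value reflects both the abundance of an RNA in the cells and its recovery. Of the defining motor neuron markers, Chat lay at 4.28 to 4.69 and Mnx1 below the presumed control median in all 5 arrays, while Isl1 (4.96 to 6.39) and Slc18a3 (5.21 to 5.56) lay above it in all 5, and the noradrenergic neuron marker Phox2a lay between 9.0034 and 9.4859. The 4 measured noradrenergic markers had a mean of 6.31 to 6.61 in FLAG-SMN IP and 7.84 to 8.24 in control IP, with Th, Chga and Dbh below control in every array by log2 differences of -1.94, -1.88 and -2.23 (limma adjusted p from 0.0957 to 0.110). Without FLAG-SMN IP replicate 1 these 3 passed (limma adjusted p from 0.00850 to 0.0387). Of the 12 neuronal markers, Snap25, Map2 and Nefh had the smallest p, with log2 differences of -2.14, -1.09 and -0.89 (limma adjusted p from 0.131 to 0.412), and Snap25 passed without that array (limma adjusted p = 0.00741). Over those 12 the median log2 difference was -0.33, with 3 positive and 9 negative differences. The part of the noradrenergic and neuronal markers in the values below was not tested. The lists of 5 measured glial, 4 macrophage and 5 fibroblast markers had mean levels from 4.31 to 4.97 in every array. The fibroblast mean mixes unlike levels. Pdgfra (6.41 to 7.35), Col1a1 (5.61 to 6.34) and Col1a2 (5.28 to 5.76) lay above the presumed control median in all 5 arrays, and Dcn and Lum below it. The glial Mbp (5.02 to 5.38) and the macrophage Csf1r (4.68 to 5.01) also lay above it in all 5, unlike the other markers of their lists. FLAG-SMN IP replicate 1 stands apart from replicates 2 and 3 on many of the histone genes, so values without it stand beside the main results.

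Promoter sequences of 4 members show motifs whose frequency differed between the classes in these windows, though none was held by one class in full and absent from the other. H2bc14 and H2ac15 are among the brightest replication-dependent genes, and H1f5 had the largest positive difference between the precipitates. H2az1 is the brightest variant by the brighter of its probe sets. Each window runs 5′ to 3′ from 250 bases before to 50 bases after the gene start, taken from RefSeq for GRCm38.p6. Capitals mark the CCAAT box, the TATA box in the form TATAAA, the octamer known from histone H2B promoters, which reads ATTTGCAT, and the H1 box of linker histone promoters, which reads AAACACA. Each was searched on both strands, and no motif searched contains another. Matches were marked wherever they lay in the window. The TATAAA of H2ac15 starts at position 21 and a CCAAT box match of H2az1 at position 22, both after the gene start.
H2bc14 (chr13:21721794-21722093, plus strand): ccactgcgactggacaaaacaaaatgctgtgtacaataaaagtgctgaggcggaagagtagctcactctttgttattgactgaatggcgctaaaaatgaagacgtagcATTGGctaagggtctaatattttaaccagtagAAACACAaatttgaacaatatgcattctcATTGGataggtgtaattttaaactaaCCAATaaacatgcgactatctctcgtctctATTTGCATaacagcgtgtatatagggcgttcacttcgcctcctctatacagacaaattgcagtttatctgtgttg
H2ac15 (chr13:21753863-21754162, minus strand): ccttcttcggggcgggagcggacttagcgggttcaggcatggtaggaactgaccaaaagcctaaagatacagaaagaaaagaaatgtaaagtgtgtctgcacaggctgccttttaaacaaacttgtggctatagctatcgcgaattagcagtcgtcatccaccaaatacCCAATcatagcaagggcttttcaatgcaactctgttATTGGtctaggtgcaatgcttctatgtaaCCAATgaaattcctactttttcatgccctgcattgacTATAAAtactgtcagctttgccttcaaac
H1f5 (chr13:21780576-21780875, minus strand): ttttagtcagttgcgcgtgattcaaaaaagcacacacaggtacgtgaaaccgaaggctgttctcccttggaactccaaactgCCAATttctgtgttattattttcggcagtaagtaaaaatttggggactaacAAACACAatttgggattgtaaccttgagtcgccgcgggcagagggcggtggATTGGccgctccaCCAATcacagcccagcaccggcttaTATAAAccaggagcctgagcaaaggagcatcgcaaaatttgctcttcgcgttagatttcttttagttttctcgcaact
H2az1 (chr3:137864237-137864536, plus strand): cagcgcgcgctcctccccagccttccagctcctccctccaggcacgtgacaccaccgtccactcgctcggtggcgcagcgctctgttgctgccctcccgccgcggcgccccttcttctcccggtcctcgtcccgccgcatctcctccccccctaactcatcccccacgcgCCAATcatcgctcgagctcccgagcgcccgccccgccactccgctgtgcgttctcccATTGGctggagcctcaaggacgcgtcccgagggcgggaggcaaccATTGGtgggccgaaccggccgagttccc

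A promoter window was found for 29 of the 33 histone members, 23 replication-dependent and 6 variant. CCAAT stood in 20 of the 23 replication-dependent windows and in 4 of the 6 variant windows, against 37.41% of 32851 windows in all. TATAAA stood in 15 of 23 and in 0 of 6, against 13.62% of all windows. The octamer stood in 8 of 23, all of them H2A or H2B genes, and in 0 of 6, against 1.74% of all windows. AAACACA stood in 4 of the 5 H1 windows and in 8 of the 23, and in 1 of the 6 variant windows (H3f3a), against 7.18% of all windows. Divergent H2A and H2B neighbours share part of their windows, so the counts are not independent. These matches describe the letters in the windows and carry no measure of binding.

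Setting the tagged precipitates against the untagged ones addresses which RNAs travel with SMN. None of the 36 members passed the threshold of 0.05 after adjustment over all probe sets (limma, 0 of 36), where 0.0319% of all probe sets passed. The unadjusted count was 2 members higher and 0 lower at p under 0.05, against 4.14% and 6.31% of all probe sets. Groups did not overlap at 4 members on the higher side (H1f5, H2bc8, H4c9 and H1f8) and 3 on the lower side (H2bc4, H1f6 and H1f10), against 12.1% and 13.2% of all probe sets. The members' counts are near the background.

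The 27 replication-dependent genes had a median log2 difference of -0.14 (range -1.16 to 0.84), with 10 positive and 17 negative differences. The 6 variants had a median of -0.02 (range -0.60 to 0.19), with 3 positive and 3 negative. Over all 19937 genes the median was 0.0019, and over all probe sets 0.018. The mean level of the replication-dependent genes minus that of the variants was -0.35, 0.62 and 0.70 log2 units with FLAG-SMN IP, against 0.14 and 0.53 with control IP. The groups thus overlapped, and no difference between the classes stood clear of the spread between arrays.

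**Figure D1:**
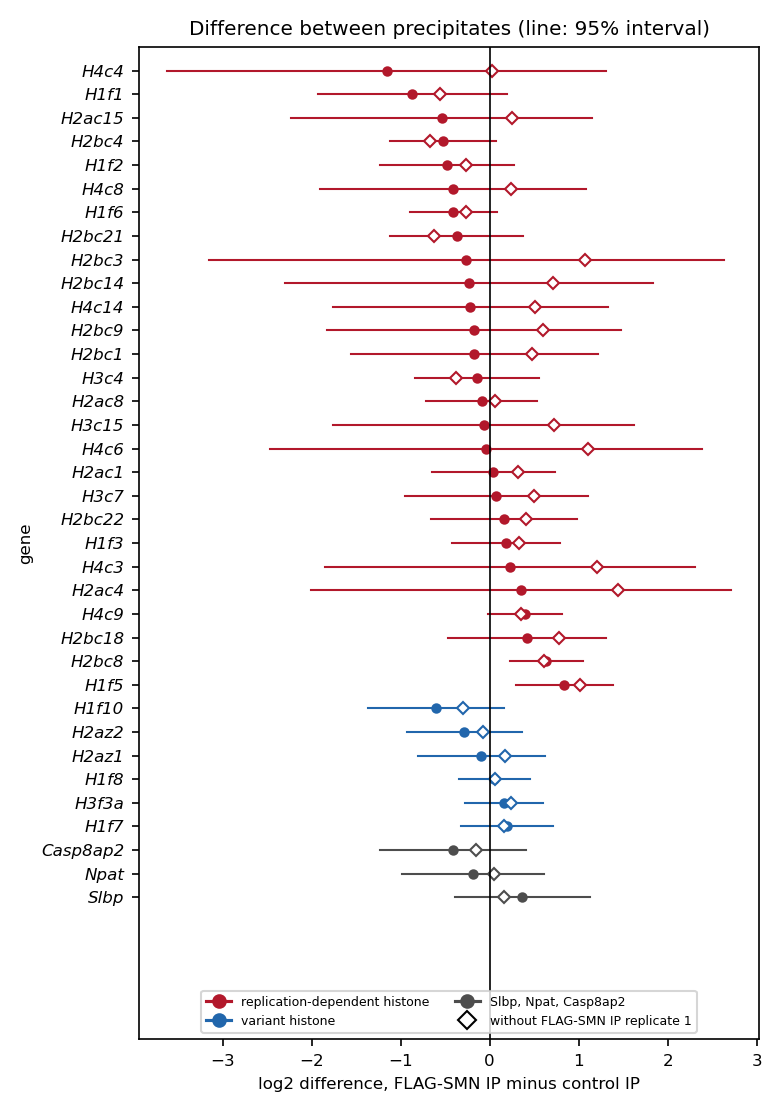
Log2 difference between FLAG-SMN IP and control IP (x axis) for each of the 36 members (y axis). Filled points are the estimates from all 5 arrays with 95% limma intervals, and open diamonds the estimates without FLAG-SMN IP replicate 1. The intervals of H1f5 and H2bc8 are the ones that do not reach 0 before adjustment.

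H1f5, a linker histone gene, had the largest positive difference of the members. Its log2 values were 10.19, 10.72 and 10.75 in FLAG-SMN IP and 9.72 and 9.71 in control IP. All 3 FLAG-SMN IP arrays thus lay above both control arrays. The means were 10.55 ± 0.32 (SD, n = 3) and 9.71 ± 0.010 (SD, n = 2). The log2 difference was 0.84 (1.79-fold, SE 0.23, 95% interval 0.29 to 1.38, limma adjusted p = 0.262). From the other 4 arrays, replicate 1 of FLAG-SMN IP left out, it was 1.02 (limma adjusted p = 0.0614).

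H2bc8 encodes an H2B protein and had the smallest adjusted p of the members. Its log2 values were 7.57, 7.42 and 7.59 in FLAG-SMN IP and 6.88 and 6.89 in control IP. Again the groups did not overlap, and FLAG-SMN IP replicate 1 was within its group. The log2 difference was 0.64 (SE 0.17, 1.56-fold, 95% interval 0.23 to 1.05, limma adjusted p = 0.258). Leaving out FLAG-SMN IP replicate 1 gave 0.62 (limma adjusted p = 0.221). H4c9, an H4 gene, stood at 6.79, 6.64 and 6.67 against 6.37 and 6.23, a log2 difference of 0.40 (limma adjusted p = 0.507). Neither passed the adjusted test.

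The H1 genes did not share a direction. H1f1 had log2 values of 8.74, 9.50 and 9.85 in FLAG-SMN IP and 9.62 and 10.84 in control IP, a log2 difference of -0.87 (95% interval -1.93 to 0.19, limma adjusted p = 0.590). It was -0.55 from the other 4 arrays, with replicate 1 of FLAG-SMN IP left out. Its groups overlapped, and its control arrays differed by 1.22 log2 units (replicate 1 minus replicate 2, -1.22). H1f2 gave -0.48, H1f3 gave 0.18 and the testis linker histone gene H1f6 gave -0.41, with limma adjusted p from 0.587 to 0.931. H1f6 was dim, at 3.93 to 4.62 over the 5 arrays.

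The H4 gene H4c4 had the largest negative difference, and a single array carried it. Its log2 values were 9.62, 13.21 and 13.14 in FLAG-SMN IP and 12.87 and 13.43 in control IP. FLAG-SMN IP replicates 2 and 3 lay between the control arrays, and replicate 1 lay far below all of them. The log2 difference was -1.16 (SE 1.04, 95% interval -3.62 to 1.31, limma adjusted p = 0.850), and 0.026 without replicate 1.

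The same array was low across most of the replication-dependent genes. FLAG-SMN IP replicate 1 was at least 1 log2 unit below both replicates 2 and 3 at 13 of the 27 genes, a pattern held by 2.44% of all probe sets. At 19 of the 27 it was the lowest of the 5 arrays, as it was at 24.2% of all probe sets. The gap to the mean of replicates 2 and 3 had a median of -1.10 log2 units over the replication-dependent genes, -0.43 over the variants and 0.027 over all genes. Without the less bright H1f7, H1f8 and H3f3a the variant median was -0.78, and replicate 1 was the lowest array at all 3 genes left. Over the 23 brighter replication-dependent genes it was -1.94. Of 6 probe sets that name H3f3a or H3f3b with a further gene, 1 met the 1-unit rule (gap -1.63), and their median gap was -0.33. The 13 genes were all among the 23 that are brighter than the median probe set. This gap was noticed in the data and is a description of 1 array, with no test.

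**Figure D2:**
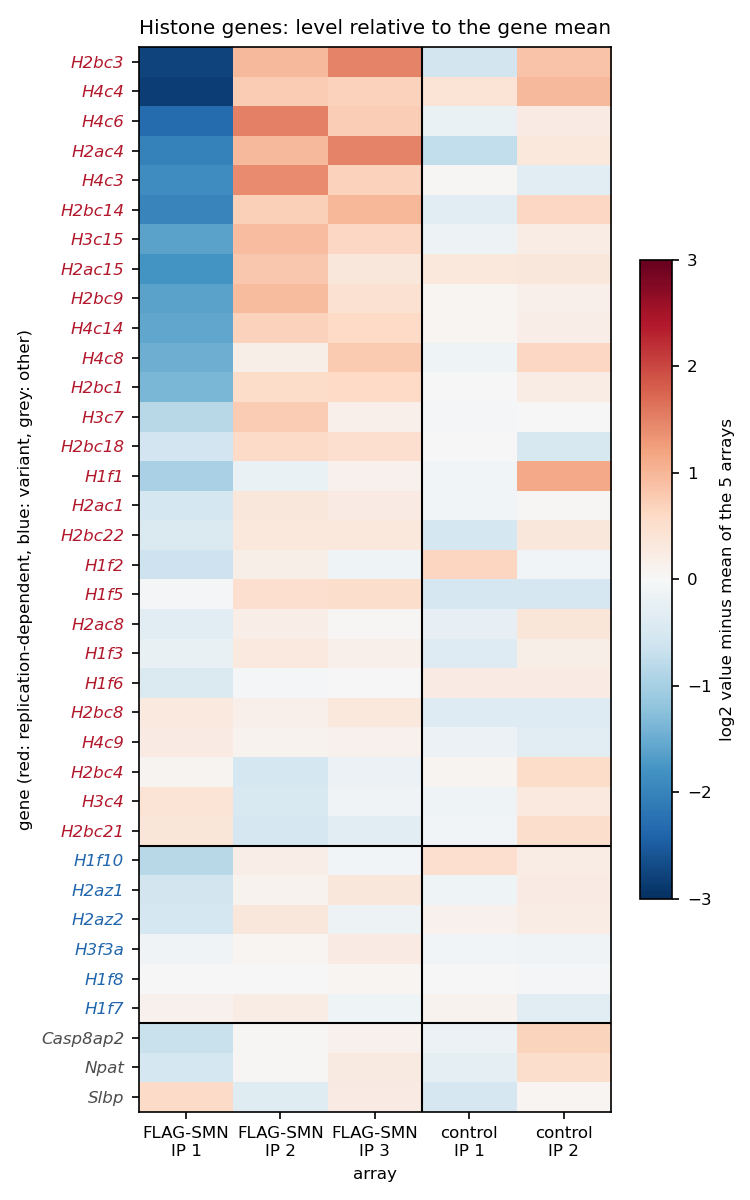
Log2 value minus the gene's mean over the 5 arrays (colour) for each member (rows) in each array (columns), ordered within class by the gap of FLAG-SMN IP replicate 1. The upper replication-dependent rows are low in FLAG-SMN IP replicate 1 and not in replicates 2 and 3, and the variant rows show smaller gaps, the widest being -0.89 for H1f10.

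The widest single gaps were in H2B, H4 and H2A genes. H2bc3, an H2B gene, had log2 values of 6.86, 10.62 and 11.12 in FLAG-SMN IP and 9.08 and 10.50 in control IP, a gap of -4.01. H4c6 stood at 8.24, 12.06 and 11.28 against 10.35 and 10.79, and its gap was -3.43. H2ac4, an H2A gene, stood at 5.30, 8.32 and 8.82 against 6.59 and 7.66, with a gap of -3.27. In each of these genes replicate 1 was the lowest array and replicates 2 and 3 were the highest. H2bc3 and H4c6 were singled out after their values were seen.

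The 4 brightest replication-dependent genes behaved alike in this respect. H2bc14 stood at 9.10, 11.81 and 12.08 in FLAG-SMN IP and 10.74 and 11.71 in control IP, H2ac15 at 9.53, 12.14 and 11.68 against 11.64 and 11.66, and H4c14 at 9.92, 12.15 and 12.08 against 11.53 and 11.68. With H4c4, these had gaps from -3.55 to -2.19. By family, the median gap was -2.55 over 6 H4 genes, -1.60 over 4 H2A genes, -1.10 over 9 H2B genes and -0.55 over 5 H1 genes. The 3 H3 genes had a median of -1.29, but only H3c15 among them was brighter than the median probe set, with a gap of -2.38. Genes of both the chromosome 13 cluster (10 of 23) and the chromosome 3 cluster (3 of 4) were among the 13. By the octamer, 5 of the 8 genes whose windows hold it and 7 of the 15 without it were among them.

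A few replication-dependent genes had no such gap. H2bc21, H2bc4 and H3c4 were higher in replicate 1 than in replicates 2 and 3, by 0.76, 0.43 and 0.70 log2 units, while H4c9 and H2bc8 exceeded that mean by 0.13 and 0.066. H2bc21 stood at 5.95, 5.10 and 5.28 in FLAG-SMN IP and 5.52 and 6.10 in control IP, and H2bc4 at 6.24, 5.65 and 5.99 against 6.26 and 6.71. These H2B genes, known earlier as Hist2h2be and Hist1h2bc, are known to yield polyadenylated mRNA too in differentiated cells. H3c4 was dim, with a mean level of 5.02. Which of these probe sets read polyadenylated RNA was not tested, and the sources used here do not give how labelling was primed.

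**Figure D3:**
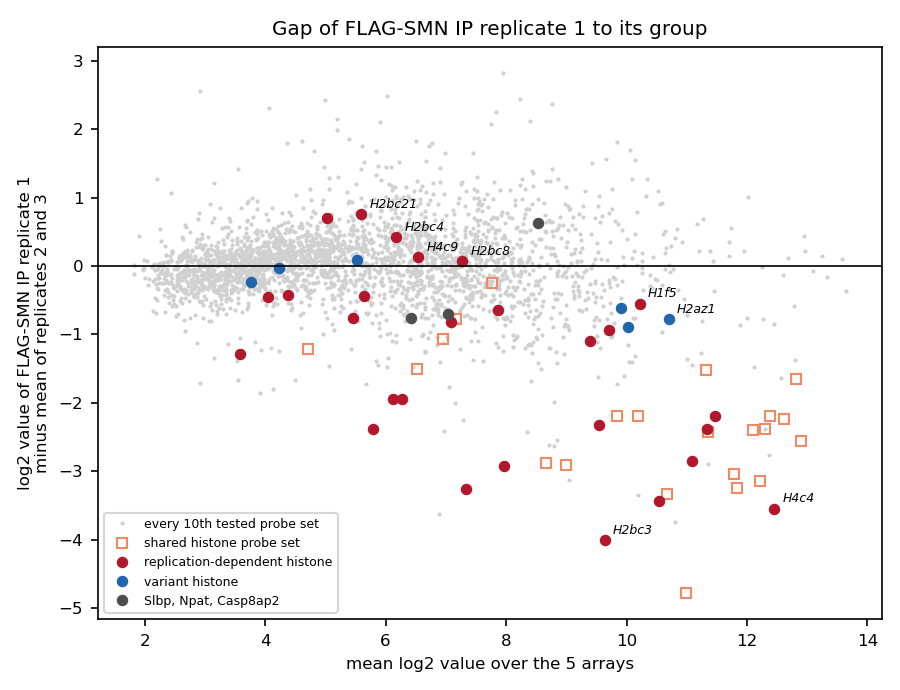
Log2 value of FLAG-SMN IP replicate 1 minus the mean of replicates 2 and 3 (y axis) against the mean log2 value over the 5 arrays (x axis). Red points are replication-dependent genes, orange squares probe sets shared by several histone genes, blue points variants, dark points the 3 regulators, and grey points every 10th tested probe set. Among the replication-dependent genes the gap reaches -4.01 (H2bc3), and among the shared probe sets -4.78, while the widest gap over all genes was -6.68.

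Leaving out FLAG-SMN IP replicate 1 turned the sign of the replication-dependent median. It was 0.41 from the remaining 4 arrays, with 21 positive and 6 negative differences, against -0.14 from all 5. Over all probe sets, 14455 of 28187 differences were positive without that array. Unadjusted p under 0.05 was then reached by 11 genes on the higher side and 2 on the lower, against 5.92% and 7.3% of all probe sets. On overlap, 16 genes lay above both control arrays and 3 below both, against 20.3% of all probe sets in either direction. After adjustment 0 of the 36 members passed, where 1.24% of all probe sets did. The variant median was 0.11 without that array, 4 of 6 being positive. Leaving out replicate 2 or 3 instead gave replication-dependent medians of -0.44 and -0.39.

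By construction, genes with wide gaps shifted most. Without replicate 1 the log2 difference was 1.08 for H2bc3, 0.026 for H4c4, 1.10 for H4c6, 1.44 for H2ac4, 1.20 for H4c3 and 0.72 for H2bc14, the 6 genes with the largest shifts. From all 5 arrays the values were -0.26, -1.16, -0.04, 0.35, 0.23 and -0.23 in the same order. Adjusted p without replicate 1 was between 0.118 and 0.991 for these genes in limma. H2bc18 moved from 0.42 to 0.78, H3c15 from -0.067 to 0.73 and H4c14 from -0.22 to 0.51. H2ac15 moved from -0.54 to 0.26, H4c8 from -0.41 to 0.24, and H2bc22 from 0.16 to 0.41.

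The control arrays also differed from each other. Control IP replicate 1 was below replicate 2 at the replication-dependent genes by a median of 0.39 log2 units (replicate 1 minus replicate 2, -0.39), with H2bc3 at -1.42 and H2ac4 at -1.07. Without control IP replicate 1 the replication-dependent median was -0.27, and without control IP replicate 2 it was 0.094.

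Many histone probe sets read several genes at once, since the coding sequences of a family are nearly identical. A further 22 probe sets carried several names, all of histone genes and nearly all of replication-dependent ones, and were kept apart from the members. Their mean levels in FLAG-SMN IP were 8.59, 10.92 and 10.79, and in control IP 10.45 and 10.62, so replicate 1 was again the low array. Replicate 1 was at least 1 log2 unit below both others at 18 of the 22, against 2.44% of all probe sets, with gaps down to -4.78. Their median log2 difference was -0.48, with 0 passing the adjusted test, and 0.26 without replicate 1, when 21 of 22 were positive. Of these, 1 probe set named for 15 genes, mostly H2B, then passed, with a log2 difference of 1.12 (limma adjusted p = 0.0487). Among them, 9 named for the H3 family are the main measure of H3, and their median difference was -0.56 from all 5 arrays. Single genes of a family are uncertain because reads of near-identical copies cannot be separated by these probes.

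Among the variants, H2az1 and H2az2 encode forms of H2A.Z, and H1f10 encodes a linker histone found in non-dividing cells too. H2az1 stood at 10.14, 10.82 and 11.03 in FLAG-SMN IP and 10.56 and 10.95 in control IP, a log2 difference of -0.09 (95% interval -0.80 to 0.62, limma adjusted p = 0.983). Its second probe set gave -0.14 and was less bright, at a mean level of 9.52 against 10.70. That is below the mean levels of H1f10 (10.03) and H2az2 (9.91). H2az2 stood at 9.38, 10.25 and 9.75 against 10.02 and 10.13, a log2 difference of -0.28 (limma adjusted p = 0.864). Without FLAG-SMN IP replicate 1, H2az1 was at 0.17 and H2az2 at -0.079. H1f10 stood at 9.20, 10.24 and 9.94 against 10.54 and 10.25. Every FLAG-SMN IP array lay below both control arrays there, replicate 2 only narrowly, and the log2 difference was -0.60 (95% interval -1.37 to 0.16, limma adjusted p = 0.615), and -0.30 without replicate 1.

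The remaining 3 variants were less bright than these. The germ cell linker histone genes H1f7 and H1f8 gave log2 differences of 0.19 and 0.053, with H1f7 at a mean level of 5.53 and H1f8 below the presumed control median in all 5 arrays. H3f3a, which encodes H3.3, had 1 probe set of its own, also below the presumed control median in all 5 arrays, at 3.67 to 4.01. Its brighter probe sets carry a further gene name, as do all those of H3f3b. Of 4 such probe sets for H3f3a the log2 differences were 0.13, 0.31, 0.38 and 0.42, and of 2 for H3f3b -0.55 and -0.59. All FLAG-SMN IP arrays lay above both control arrays at 2 of the 4 H3f3a probe sets and below them at both H3f3b probe sets, against the 12.1% and 13.2% of all probe sets given above. None of the 6 passed, the smallest limma adjusted p being 0.462.

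The regulators had small differences that did not pass. Slbp stood at 9.09, 8.16 and 8.78 in FLAG-SMN IP and 8.02 and 8.59 in control IP, a log2 difference of 0.37 (95% interval -0.39 to 1.13, limma adjusted p = 0.840), with 0.55 at its second probe set. Replicate 1 was the highest array for Slbp, as it was for H4c9 and H3c4. Npat stood at 6.50, 7.08 and 7.31 against 6.73 and 7.56, a log2 difference of -0.18 (limma adjusted p = 0.959). Casp8ap2 stood at 5.76, 6.47 and 6.57 against 6.25 and 7.10, a log2 difference of -0.41 (limma adjusted p = 0.834). For both, replicate 1 was the lowest array. Without it the log2 differences were 0.16 for Slbp, 0.050 for Npat and -0.16 for Casp8ap2.

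Other genes of histone mRNA processing did not shift as a group. Of 28 measured genes, the 3 regulators included, 0 passed the adjusted test and 0 reached an unadjusted p under 0.05, with a median log2 difference of -0.06 (-0.041 without FLAG-SMN IP replicate 1). Lsm11, of the U7 particle, stood at 6.11, 6.37 and 6.62 against 5.69 and 6.02, a log2 difference of 0.51 (limma adjusted p = 0.506). Lsm10, its partner, gave 0.17. Snrpg, an Sm protein gene, gave 0.56 and Ctif, a translation factor that works with SLBP, gave 0.45, with limma adjusted p of 0.488 and 0.539. Rnu7, the U7 RNA itself, was below the presumed control median in all 5 arrays, at 2.75 to 3.35, so its level is not known from these arrays. Lsm10 and Rnu7 were singled out after their values were seen.

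Histone chaperone genes spanned a wider range of log2 differences (-1.17 to 0.96) than the histone mRNA processing genes (-0.41 to 0.56). Of 28 measured, 0 passed the adjusted test, and the median was -0.12 (-0.087 without FLAG-SMN IP replicate 1). At an unadjusted limma p under 0.05, 1 was higher and 2 were lower, against 4.14% and 6.31% of all probe sets. These counts are near the background. Asf1a, which hands H3 and H4 to assembly factors, stood at 6.53, 6.61 and 6.70 in FLAG-SMN IP and 7.67 and 7.89 in control IP. Every FLAG-SMN IP array lay below both control arrays, and the log2 difference was -1.17 (SE 0.18, limma adjusted p = 0.115). Daxx and Atrx encode partners that place H3.3. Daxx gave 0.73 and Atrx -0.65, with limma adjusted p of 0.226 and 0.411, and neither passed.

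S phase genes were low in the same FLAG-SMN IP array as the replication-dependent histones. Over 39 measured genes, their mean level was 7.02, 7.60 and 7.80 in FLAG-SMN IP and 7.09 and 7.88 in control IP, so FLAG-SMN IP replicate 1 and control IP replicate 1 were the low arrays. Replicate 1 was at least 1 log2 unit below both replicates 2 and 3 at 10 of the 39, against 2.44% of all probe sets. The median gap was -0.62, against 0.027 over all genes. Tyms, thymidylate synthase, stood at 6.26, 8.50 and 8.22 against 8.33 and 8.44 and was singled out after its values were seen. Pcna, the sliding clamp of replication, went the other way, at 9.52, 8.97 and 9.36 against 9.35 and 10.03, with a gap of 0.36. From all 5 arrays the S phase median was -0.013 and 0 of 39 passed, Pole (-0.74), E2f1 (0.52) and Pcna (-0.41) included. That median was not stable. It was 0.24 without FLAG-SMN IP replicate 1, when 26 of 39 were positive, against 14455 of all 28187 probe sets. It was -0.32 without control IP replicate 1 and 0.45 without control IP replicate 2. E2f1 ranged from 0.010 to 1.03 over the fits that leave out 1 array, without control IP replicate 1 and 2 in that order.

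**Figure D4:**
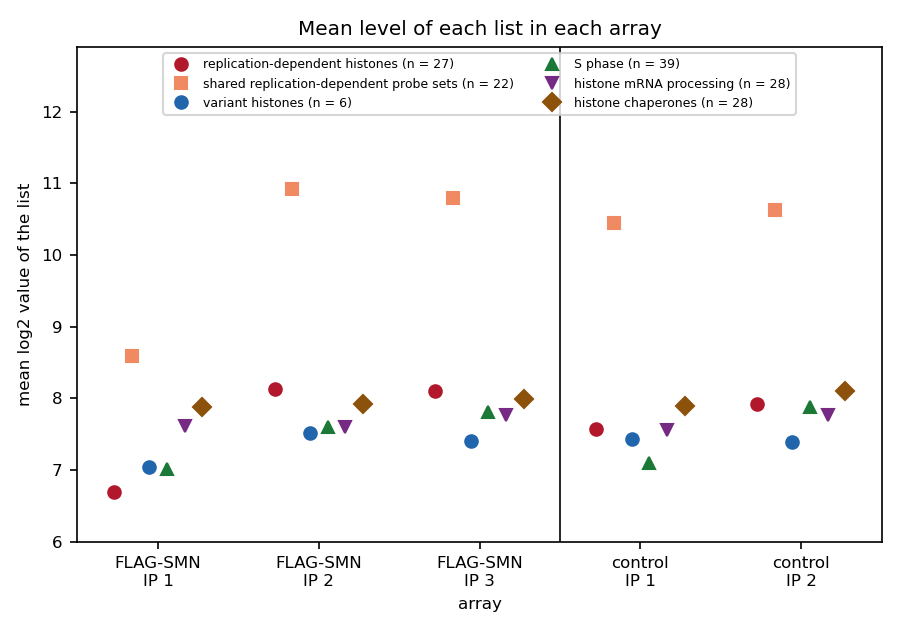
Mean log2 value of each list (y axis) in each of the 5 arrays (x axis), with the number of genes or probe sets in the legend. FLAG-SMN IP replicate 1 is lowest for the replication-dependent histones (6.69 against 8.14 and 8.10) and for the shared histone probe sets. By smaller margins it is also lowest for the variants, the histone chaperone genes and the S phase genes. For the S phase genes it is at 7.02, with control IP replicate 1 at 7.09. The mean of the histone chaperone genes lies between 7.88 and 8.11 over the arrays.

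Several neuronal markers were higher in that array. Over 12 motor neuron and neuronal markers the mean level was 6.51, 5.56 and 5.65 in FLAG-SMN IP and 6.37 and 6.44 in control IP, with a median gap of 0.81. Replicate 1 was at least 1 log2 unit above both others at 4 of the 12, against 612 of all 28187 probe sets. Gap43 (3.28) and Tubb3 (2.07), singled out after their values were seen, had the widest gaps, while Chat (-0.011), Isl1 (-0.12) and Mnx1 (-0.24) had none in that direction. The part of S phase and neuronal genes in the histone values was not tested. In RNA precipitated from whole cultures, fewer cells in S phase, less histone RNA per cell and lower recovery in the precipitate cannot be told apart.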

How the data were processed

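RNA from anti-FLAG precipitates was measured on Affymetrix arrays in 5 samples, grouped by sample title. The deposited log2 values were made by the authors with RMA, per the submitters' processing notes, with no version or settings in the sources used here. That they are log2 rests on their range, 1.28 to 14.15. Of 34760 probe sets, 6573 below the lowest annotated ID were presumed controls and left out; 28187 were tested, of which 21640 name 1 gene. FLAG-SMN IP was compared with control IP in limma 3.58.1 (R 4.3.3) with lmFit and eBayes, 2-sided and without a block. P-values were adjusted by Benjamini-Hochberg across the 28187 probe sets, with a threshold of 0.05 and 95% intervals. The number of arrays limits the precision. The brightest probe set stood for each gene.

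Members and lists were chosen with earlier results of these data known. Named genes were all variants, the 3 regulators, the 8 replication-dependent genes at each end of the range of differences, the 4 brightest, the 3 of smallest p in each pathway, neuronal and noradrenergic list, and Pcna. H2bc1, H2bc3, H2bc9, H3c15, H3c4, H4c6, Lsm10, Rnu7, Tyms and genes outside the rule were chosen after their values were seen. Chat, Mnx1, Isl1, Slc18a3, Phox2a, Pdgfra, Col1a1, Col1a2, Dcn, Lum, Mbp and Csf1r are named as cell type markers. H2ax, H2aj, Macroh2a1 and Macroh2a2 fall outside the symbol rule. The fit was tested on simulated data. Alternatives were cyclic loess, centring, a brightness filter, trend and robust moderation, array weights, the replicate block, leaving out each array, probe set averages, all probe sets, and changes of membership. Promoters came from RefSeq (GRCm38.p6). Figures used matplotlib 3.10.9.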

Additional observations from a re-analysis of the deposited data

How the results depend on the processing

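No member passed the adjusted threshold under any setting run (limma, lowest adjusted p = 0.0614, H1f5 without FLAG-SMN IP replicate 1); over all 5 arrays 2 had an unadjusted p under 0.05. Leaving out 1 array at a time, the replication-dependent median ranged from -0.44 to 0.41, its difference from the variant median from -0.38 to 0.30, its genes without overlap from 6 to 19 (5 from all arrays; over all probe sets from 35.1% to 58.3%, and 25.3% from all arrays), its genes at unadjusted p under 0.05 from 2 to 13, variants without overlap from 2 to 4, the S phase median from -0.32 to 0.45, and the chaperone median from -0.28 to 0.0050 and 0.016. With the replicate number as a block, 4 replication-dependent genes had an unadjusted p under 0.05 and 0 members passed. H2ac4 was then at -0.32 and H4c3 at -0.074. No control array shares the number of FLAG-SMN IP replicate 3. The block fit therefore gave the same class medians as leaving that array out (-0.39 for replication-dependent genes and -0.11 for variants). Same-numbered arrays had correlations of deviations from their group means of 0.13 and -0.20. The deviations of the control arrays are exact opposites by construction, so these values cannot decide whether same-numbered arrays were handled together. Variants without overlap were 2 of 6 in the main fit, 1 of 4 with brighter probe sets only, 0 of 6 after centring and 0 of 6 after cyclic loess. They were 6 of 16 in a wider variant class and 1 of 3 without H1f7, H1f8 and H3f3a, where the variant median was -0.28. The wider and the reduced class were both chosen after seeing the data, and the share of all probe sets beside them is 25.3%, as in the main fit. For the brightness filter, centring and cyclic loess that share is not given here, so those counts have no background beside them. The cause of the shifts between settings was not tested. Array weights gave FLAG-SMN IP replicate 1 a weight of 0.453, moved the replication-dependent median to 0.27 (18 positive, 9 negative) and its difference from the variant median from -0.12 to 0.18, and turned the sign of H2az1 (0.10), H2bc1 (0.27), H2bc14 (0.43), H2bc3 (0.68), H2bc9 (0.29), H3c15 (0.43), H4c14 (0.26), H4c6 (0.63) and H4c8 (0.085).

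Leaving out 1 array at a time turned the sign of some members, none past the threshold, with ranges of -0.83 to 0.015 for Casp8ap2, -0.59 to 0.23 for Npat, -0.10 to 0.47 for H1f3, -0.019 to 0.41 for H1f7, -1.05 to 0.26 for H2ac15, -0.32 to 1.44 for H2ac4, -0.28 to 0.17 for H2az1, -0.50 to 0.48 for H2bc1, -0.77 to 0.72 for H2bc14, -0.27 to 0.60 for H2bc22, -1.06 to 1.08 for H2bc3, -0.68 to 0.60 for H2bc9, -0.54 to 0.73 for H3c15, -0.37 to 0.067 for H3c4, -0.60 to 0.51 for H4c14, -0.44 to 1.20 for H4c3, -1.76 to 0.026 for H4c4, -0.81 to 1.10 for H4c6 and -0.89 to 0.24 for H4c8. Counting H2ax, which is outside the symbol rule, as replication-dependent gave a median of -0.12. Signal near the presumed controls limits H1f6, H1f8, H2ac8, H3c7 and H3f3a.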

Other observations

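Variant histone genes outside the symbol rule gave values of both signs, and were looked up after the data were seen. H2ax, whose mRNA exists in stem-loop and polyadenylated forms, stood at 7.47, 8.49 and 7.94 in FLAG-SMN IP and 8.19 and 7.92 in control IP, a log2 difference of -0.095 (limma adjusted p = 0.983). Replicate 1 was its lowest array, by a gap of -0.74 to the mean of replicates 2 and 3. H2aj, an H2A gene outside the large clusters, stood at 7.43, 6.37 and 6.43 against 6.44 and 6.81, with a gap of 1.03. Macroh2a1, which encodes a large H2A variant, stood at 9.99, 8.78 and 9.17 against 9.45 and 9.63, with a gap of 1.01. For these last genes replicate 1 was the highest array. Their log2 differences were 0.12 and -0.23 (limma adjusted p = 0.981 and 0.942), and Macroh2a2 gave 0.22 (limma adjusted p = 0.873).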
